A study of Homo sapiens with 6 samples.

Results

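The miR-200 family comprises miR-200a, miR-200b, miR-200c, miR-141 and miR-429. Its members were taken by name from the probes of a microRNA array, as guide-strand probes with 1 of these 5 stems. Guide-strand probes are those named without an asterisk and without a precursor suffix. There were 4 members, miR-429, miR-200a, miR-200b and miR-141, among 386 guide-strand probes and 581 probes with values in all. The guide strand of miR-200c was not analysed here. A further 3 probes of these stems, miR-200b*, miR-200b-pre and miR-200c-pre, were kept apart as context.

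The cells were Hep3B, an established human hepatocellular carcinoma line, transfected by lipofection with a pcDNA3.1 plasmid. The HDAC6 group (3 arrays) received pcDNA3.1 carrying HDAC6, and the Mock group (3 arrays) received the empty plasmid. HDAC6 is a mainly cytoplasmic deacetylase, and the series title asks which miRNAs it regulates in this cancer. Per the labels, RNA of 3 extractions was mixed into 1 pool per condition, so the arrays of a group may be repeated hybridizations and every p-value measures a spread that may be technical. The share of transfected cells was not given in the sources used here, and HDAC6 mRNA was not measured.

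The miR-200 family maintains epithelial identity. Its members bind the messenger RNAs of ZEB1 and ZEB2, transcription factors that silence E-cadherin (CDH1), and ZEB1 and ZEB2 in turn bind E-boxes upstream of the miR-200 genes, so that each side represses the other. Loss of the family is a known feature of epithelial-mesenchymal transition in carcinomas.

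The 5 mature sequences are shown because the members fall into groups by seed, the stretch that pairs with target messages. They were read from RefSeq (GRCh38.p14), which held an entry for each of the 5. Capitals mark the seed, bases 2 to 8 from the 5′ end. The probe names carry no arm, and each was read as the 3′ arm of the hairpin.
miR-200a: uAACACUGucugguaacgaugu
miR-141: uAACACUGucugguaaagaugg
miR-200b: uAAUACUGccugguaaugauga
miR-200c: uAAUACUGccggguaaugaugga
miR-429: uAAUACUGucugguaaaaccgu
The seed AACACUG of miR-200a and miR-141 pairs with CAGUGUU in a target, and the seed AAUACUG of miR-200b, miR-200c and miR-429 pairs with CAGUAUU. The seeds differ by 1 base, U4C from miR-200b to miR-200a, counted from the 5′ end. Among 2370 mature human miRNAs of the RefSeq table, 0 outside the family carried either seed.

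Relatedness by sequence did not follow seed alone. Over the 22 positions compared, miR-200a and miR-141 differed at 2 (C17A and U22G), and miR-200b and miR-200c also at 2 (U11G and A22G). MiR-429 differed from miR-200b, which has its seed, at 6 positions and from miR-200a, which has the other seed, at 5. All 5 sequences were identical at 14 of 22 positions. With sequences this close, a probe for 1 member may also have bound another, and this was not tested, since probe sequences were not used here. The values of the 4 members are uncertain to that extent and may not be independent of each other.

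The genes lie in 2 clusters. On chromosome 1, MIR200B (chr1:1167104-1167198), MIR200A (chr1:1167863-1167952) and MIR429 (chr1:1169005-1169087) span 1984 bp of the plus strand within the long noncoding transcript MIR200BHG. On chromosome 12, MIR200C (chr12:6963699-6963766) and MIR141 (chr12:6964097-6964191) span 493 bp within the noncoding transcript MIR200CHG. Each cluster thus holds both seeds, and miR-200a and miR-141 carry 1 seed from 2 chromosomes. Coordinates are those of RefSeq on GRCh38.p14, since the array values carry none.

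The promoters of the 2 host transcripts are shown because the genes of all 4 members lie within these transcripts. ZEB1 and ZEB2 are known to bind the E-box CACCTG. Each runs from 250 bases before to 50 bases after the annotated start, from RefSeq on the plus strand of GRCh38.p14. Capitals mark CACCTG, searched on both strands.
MIR200BHG, chr1:1162627-1162926: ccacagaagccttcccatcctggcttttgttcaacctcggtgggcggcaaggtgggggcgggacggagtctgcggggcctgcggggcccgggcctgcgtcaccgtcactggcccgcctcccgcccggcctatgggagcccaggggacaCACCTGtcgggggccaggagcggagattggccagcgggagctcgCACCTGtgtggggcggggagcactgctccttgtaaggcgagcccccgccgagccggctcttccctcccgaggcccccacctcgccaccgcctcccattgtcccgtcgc
MIR200CHG, chr12:6962995-6963294: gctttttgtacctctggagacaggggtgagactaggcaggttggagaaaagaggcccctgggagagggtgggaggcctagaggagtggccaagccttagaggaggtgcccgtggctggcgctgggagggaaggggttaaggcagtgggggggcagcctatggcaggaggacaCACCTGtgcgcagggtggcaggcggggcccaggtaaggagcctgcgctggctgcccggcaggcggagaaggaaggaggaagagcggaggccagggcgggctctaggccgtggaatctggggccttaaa
The MIR200BHG window held 2 matches, whose first bases lay at -102 and -58 from the start, and the MIR200CHG window held 1, at -78. Of 35116 human promoters of the same length, 20.6% held at least 1 match and 3.5% at least 2, so these matches are a description and no evidence of binding.

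All 4 measured members of the miR-200 family were lower in HDAC6 cells than in Mock cells, by 2.38-fold to 3.39-fold. In the same test 24.4% of all 581 probes were lower and 21.3% higher, at a Benjamini-Hochberg adjusted p under 0.05 from limma fitted across the array. The authors had class-filtered the values by a rule not given in the sources used here, so these shares describe the probes with values alone. Of the 386 guide strands, the class of the members, 114 were lower and 80 higher. The median log2 fold change of the 4 members was -1.47, against -0.09 over all probes and -0.21 over the guide strands. Repeating the quantile normalization moved the median of all probes to 0.08, and the 4 members stayed lower under it and under the other scalings tried. Values are normalized signals on a log2 scale, so a fold change tells how a probe moved against the rest of its array and not against the total amount of miRNA. In such bulk RNA, fewer cells that express a miRNA and less of it per cell cannot be told apart.

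MiR-429, of the chromosome 1 cluster and the AAUACUG seed, had log2 signals of 6.65, 6.33 and 7.06 on the HDAC6 arrays, against 8.15, 8.36 and 8.80 on the Mock arrays. The highest HDAC6 array stayed more than 1 log2 unit below the lowest Mock array. The mean was 6.68 ± 0.37 in HDAC6 and 8.44 ± 0.33 in Mock (SD, n = 3 each), a log2 fold change of -1.76 (SE 0.267, limma, adjusted p = 0.00318). This change was the largest in the family on the deposited scale, though with an offset added to low signals that of miR-200a was larger (-1.40, against -1.16). It ranked 13th among the falls of all probes and 10th among those of the guide strands.

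MiR-200a, its neighbour in the cluster with the other seed, had log2 signals of 8.36, 8.31 and 8.65 on the HDAC6 arrays, against 9.89, 9.84 and 10.46 on the Mock arrays. The groups did not overlap, and Mock replicate 3 stood above the other arrays. Its log2 fold change was -1.63 (SE 0.234, limma, adjusted p = 0.0028), the smallest p of the 4, with group means of 8.44 ± 0.18 in HDAC6 and 10.06 ± 0.34 in Mock (SD, n = 3 each).

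MiR-200b, which opens the chromosome 1 cluster and shares its seed with miR-429, had log2 signals of 7.61, 7.36 and 8.17 on the HDAC6 arrays, against 8.97, 8.92 and 9.15 on the Mock arrays. Here the Mock arrays were close together and the HDAC6 arrays more spread, with HDAC6 replicate 3 the highest of its group. The means of 7.71 ± 0.42 in HDAC6 and 9.01 ± 0.12 in Mock (SD, n = 3 each) gave a log2 fold change of -1.30 (SE 0.248, limma, adjusted p = 0.00513).

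MiR-141, from the chromosome 12 cluster, had log2 signals of 5.81, 6.34 and 6.06 on the HDAC6 arrays, against 6.87, 7.68 and 7.42 on the Mock arrays. It was the dimmest member: its mean stood at the 13.1 percentile of probe means in HDAC6 and at the 45.3 percentile in Mock. The means were 6.07 ± 0.26 in HDAC6 and 7.32 ± 0.41 in Mock (SD, n = 3 each), a log2 fold change of -1.25 (SE 0.264, limma, adjusted p = 0.00782). Its distance from background is unknown, because the table holds no detection call. Adding an offset of 93.8 linear units, the 25th percentile of all signals, before taking logs changed its log2 fold change to -0.66 (limma, adjusted p = 0.0158) and that of miR-429 to -1.16 (limma, adjusted p = 0.00346). The size of these changes therefore depends on how low signals are treated, while their direction and their call did not change with this offset.

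**Figure D1:**
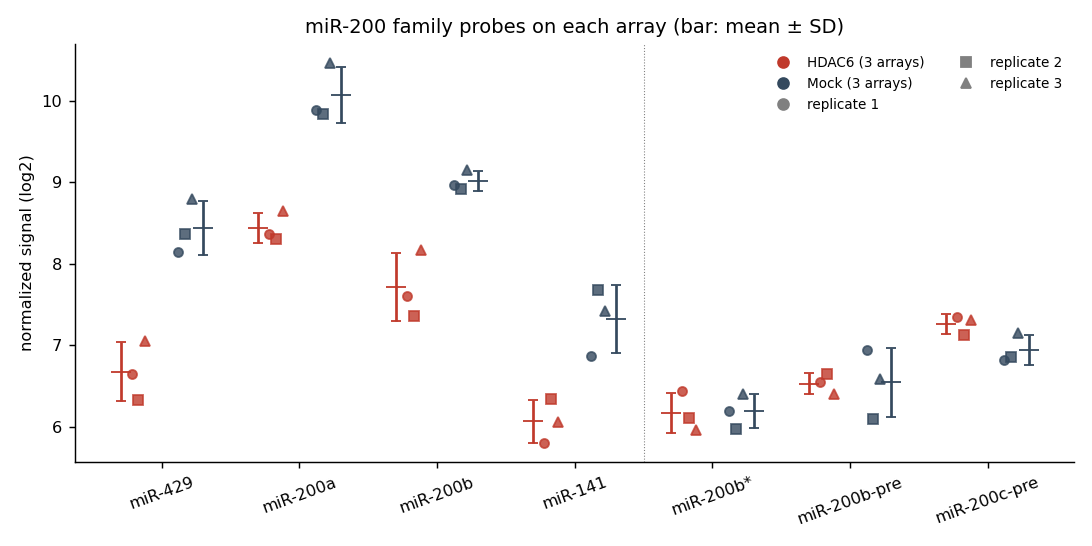
Normalized log2 signal of the 4 miR-200 family members (left of the dotted line) and of 3 star and precursor probes (right) on each of 6 arrays. HDAC6 arrays are red and stand left of the Mock arrays in dark blue, symbols mark the replicate number, and bars give the mean ± SD. For each member all HDAC6 points lie below all Mock points, whereas the groups overlap for the 3 other probes.

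The groups did not overlap for any of the 4 members. HDAC6 arrays lay wholly below Mock arrays for 29.8% of all 581 probes. The 95% intervals of the log2 fold changes ran from -2.38 to -1.14 for miR-429, from -2.17 to -1.08 for miR-200a, from -1.88 to -0.73 for miR-200b and from -1.87 to -0.64 for miR-141. These intervals overlap widely. Leaving out any 1 array kept all 4 members past the threshold, with the highest adjusted p at 0.0321 for miR-141 without HDAC6 replicate 1 (limma).

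None of the 3 star and precursor probes passed the test (limma, 0 at an unadjusted p under 0.05 too). Over the array, 6 of 104 precursor probes were lower and 32 higher, and 22 of 83 star strands were lower and 12 higher, so a precursor probe that was not lower was usual here. MiR-200b*, the 5′ arm cut from the same hairpin as miR-200b, had log2 signals of 6.44, 6.11 and 5.97 in HDAC6, against 6.20, 5.98 and 6.40 in Mock. Its log2 fold change was -0.02, with a 95% interval from -0.52 to 0.48 (limma, adjusted p = 0.954). The precursor probe miR-200b-pre had 6.55, 6.65 and 6.40 in HDAC6, against 6.95, 6.10 and 6.59 in Mock, a log2 fold change of -0.01 (95% interval from -0.59 to 0.57, limma, adjusted p = 0.977). The sign of both turned to positive when arrays were quantile normalized again or centred on control probes, and without HDAC6 replicate 3 or Mock replicate 3, and their calls did not change.

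MiR-200c-pre, the precursor of the unmeasured guide miR-200c and the neighbour of miR-141, had log2 signals of 7.35, 7.13 and 7.31 in HDAC6, against 6.82, 6.86 and 7.15 in Mock. HDAC6 replicate 2 lay just below Mock replicate 3, and the log2 fold change of 0.32 (95% interval from -0.12 to 0.77) did not pass (limma, adjusted p = 0.201). The mean of miR-200b* stood at the 17.6 percentile of probe means in HDAC6 and the 6.5 percentile in Mock, and that of miR-200b-pre at 29.8 in HDAC6 and 18.8 in Mock. Both were thus already low in Mock, where a fall of the guide's size might not show, so its absence says little. MiR-200c-pre was nearer the middle of the array, at 43.9 in HDAC6 and 34.3 in Mock. What a mature miRNA contributes to a precursor probe, or a hairpin to a mature probe, was not tested.

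The sequence read for miR-200b* is shown beside these values because it shares neither seed with the guides. It lies at chr1:1167124-1167145 on the plus strand of GRCh38.p14, and capitals mark bases 2 to 8.
miR-200b-5p: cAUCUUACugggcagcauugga

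**Figure D2:**
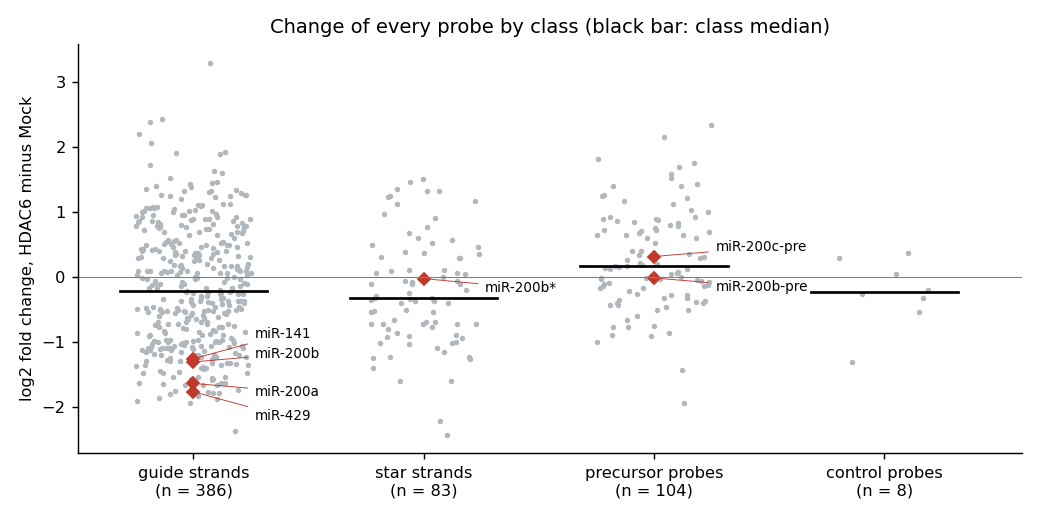
Log2 fold change, HDAC6 minus Mock, of every probe by class, with the miR-200 family probes as red diamonds and the class median as a black bar. The 4 guide strands lie between -1.76 and -1.25, below the guide-strand median of -0.21, while miR-200b*, miR-200b-pre and miR-200c-pre lie between -0.02 and 0.32.

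Whether the change went with the cluster or with the seed was examined through differences formed within each array, since the levels of different probes cannot be compared. In all, 8 such differences were tested between groups by exact two-sided permutation tests, of which 6 were between members. With 3 arrays against 3 the smallest p possible is 0.1, so none could pass 0.05, and p-values were adjusted over the 8.

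Across clusters, at the same seed, the difference of miR-200a minus miR-141 was 2.37 ± 0.34 in HDAC6 and 2.74 ± 0.50 in Mock (SD, n = 3 each). On the deposited scale the log2 change of -0.37 between groups was within the array spread (exact permutation p = 0.3, adjusted 0.4), and the groups overlapped. With the offset the change was -0.74, at the smallest possible p (exact permutation p = 0.1, not adjusted). Across seeds, within the chromosome 1 cluster, the difference of miR-429 minus miR-200a was -1.76 ± 0.20 in HDAC6 and -1.63 ± 0.13 in Mock (SD, n = 3 each), a change of -0.13 (exact permutation p = 0.5, adjusted 0.571). That small change turned to 0.24 with the offset (exact permutation p = 0.1, not adjusted). For miR-200b minus miR-200a, also across seeds, the change was 0.32 (exact permutation p = 0.3, adjusted 0.4). It was 0.4 with the offset (exact permutation p = 0.1, not adjusted).

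On the deposited scale, the member pair whose groups did not overlap had the same seed and the same cluster. MiR-429 minus miR-200b was -0.96, -1.03 and -1.11 in HDAC6, against -0.81, -0.56 and -0.35 in Mock. The change of -0.46 reached the smallest possible p before adjustment (exact permutation p = 0.1, adjusted 0.267). With the offset it was -0.16 (exact permutation p = 0.3, not adjusted). The pairs that differed in seed and cluster changed by -0.51 for miR-429 minus miR-141 (exact permutation p = 0.3, adjusted 0.4) and by -0.05 for miR-200b minus miR-141 (exact permutation p = 1, adjusted 1). With the offset these pairs changed by -0.5 and -0.34, in that order (exact permutation p = 0.2 for each, not adjusted). The sign of miR-200b minus miR-141 turned without HDAC6 replicate 2 (0.26) or Mock replicate 1 (0.15). These tests could not reach 0.05 at any size of difference, so they neither show a difference between the 2 clusters or the 2 seed groups nor that they changed alike.

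Within each array, the miR-200b guide was also set against the other products of its hairpin. These 2 pairs were added with the values of the 3 probes known, so they are a description. MiR-200b minus miR-200b* was 1.17, 1.24 and 2.19 in HDAC6, against 2.76, 2.94 and 2.76 in Mock, a change of -1.28 with no overlap (exact permutation p = 0.1, adjusted 0.267). MiR-200b minus miR-200b-pre was 1.05, 0.70 and 1.77 in HDAC6, against 2.02, 2.81 and 2.57 in Mock, a change of -1.29 with no overlap (exact permutation p = 0.1, adjusted 0.267). Since miR-200b* and miR-200b-pre themselves changed by -0.02 and -0.01, both changes are nearly that of miR-200b alone (-1.30) and add no separate measure. In both, HDAC6 replicate 3 stood nearest to the Mock arrays.

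**Figure D3:**
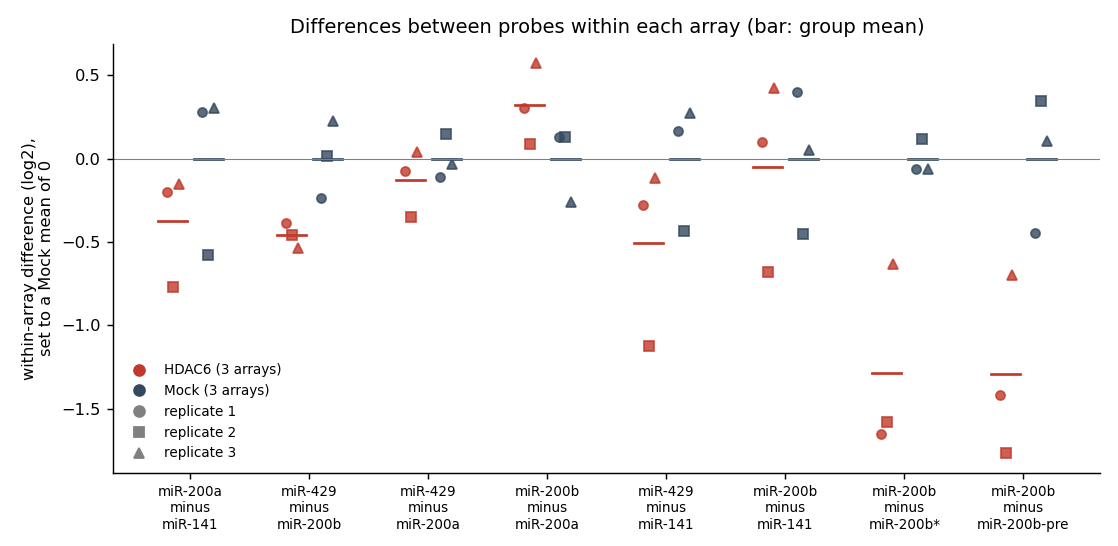
Within-array differences between probes on the log2 scale, set to a Mock mean of 0 for each pair, with HDAC6 arrays in red left of Mock arrays in dark blue and bars at the group means. HDAC6 and Mock points are mixed for 5 of the 6 member pairs and apart for miR-429 minus miR-200b, and lie apart for miR-200b against its star and precursor probes.

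The spread within groups also had a shape. HDAC6 replicate 3 was the highest HDAC6 array and Mock replicate 3 the highest Mock array for the 3 members of the chromosome 1 cluster, miR-429, miR-200a and miR-200b. Both held for 22.0% of all guide strands, HDAC6 replicate 3 being the highest of its group for 37.0% and Mock replicate 3 for 49.7%. For miR-141, of chromosome 12, replicate 2 was the highest in each group. Centred on each probe's mean over the 6 arrays, the 3 chromosome 1 members lay between -1.23 and -0.94 on HDAC6 replicate 2, whereas miR-141 lay at -0.36. On Mock replicate 1 they lay between 0.59 and 0.64, and miR-141 at 0.18. MiR-141 was the only measured member of its cluster and also the dimmest, and the arrays may be repeated hybridizations. Whether the order of arrays went with the cluster was therefore not tested.

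Among the guide strands outside the family, those whose profile over the 6 arrays was most like the family mean are given here. Likeness was the root-mean-square distance between centred log2 values, so a fall of similar size is fixed by the choice and is given as a description. The median distance of the 382 other guide strands was 0.802. MiR-524-5p, of a placental cluster, was closest at 0.0946, with log2 signals of 6.13, 6.20 and 6.77 in HDAC6, against 7.58, 7.71 and 8.0 in Mock. Its log2 fold change was -1.40 (SE 0.241).

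The next 5 were miR-20b (distance 0.116), miR-146b-5p (0.127), miR-30c (0.144), miR-19b (0.147) and miR-30e (0.147). MiR-20b and miR-19b belong to the proliferation-linked miR-17/92 group and its paralogs, miR-146b-5p restrains inflammatory signalling, and miR-30c and miR-30e come from the miR-30 family. Their log2 fold changes lay between -1.58 for miR-30e and -1.33 for miR-20b. The members themselves stood at 0.132 for miR-200a, 0.179 for miR-200b, 0.183 for miR-429 and 0.302 for miR-141, although each member is part of that mean. Of the other guide strands 3 were closer to the family mean than miR-200a was, and 40 were closer than miR-141.

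**Figure D4:**
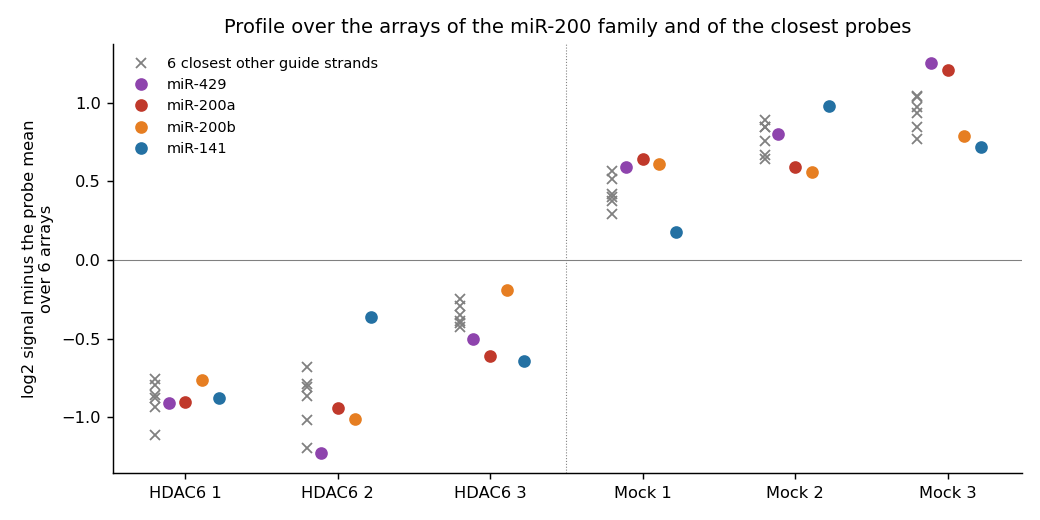
Log2 signal of each miR-200 family member, minus the probe's mean over 6 arrays, on each array (coloured points), with the 6 closest other guide strands as grey crosses. All points are below 0 on the HDAC6 arrays and above 0 on the Mock arrays, and miR-141 stands apart from the other members on HDAC6 2 and Mock 1.

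Other miRNAs reported to repress ZEB1, ZEB2, SNAI1 or SNAI2, and so linked to epithelial identity like the family, were also mostly lower. Of 10 such stems 8 had guide-strand probes: 6 were lower and 0 higher in HDAC6, against 24.4% lower and 21.3% higher of all probes. Their median log2 fold change was -1.32. Guide strands as a class were also more often lower, with 114 of 386 lower and 80 higher. Falls of similar size occurred outside the list too, as for miR-29b (-1.93) and miR-30b (-1.87), so they were not particular to these miRNAs. MiR-192 and miR-215, which share a seed and repress ZEB2, had log2 fold changes of -1.90 (SE 0.416) and -1.40 (SE 0.372). MiR-34a, induced by p53 and a repressor of SNAI1, had 7.94, 7.83 and 7.99 in HDAC6, against 9.02, 9.30 and 9.16 in Mock, a log2 fold change of -1.24 (SE 0.183, limma, adjusted p = 0.00297). MiR-30a, another repressor of SNAI1, was at -1.62 (SE 0.261), and miR-101, which represses the histone methyltransferase EZH2, at -1.66 (SE 0.264).

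MiR-153 was lower by less, at -0.59 (SE 0.198, limma, adjusted p = 0.0415). That call was lost with the offset, repeated quantile normalization, control-probe centring or a replicate block, and without any single array but Mock replicate 2, with the highest adjusted p at 0.263. MiR-138 had a log2 fold change of -0.41 (limma, adjusted p = 0.118) and miR-145 one of 0.34 (limma, adjusted p = 0.686). MiR-145 had 8.96, 6.63 and 6.43 in HDAC6, against 7.22, 6.78 and 7.01 in Mock, so that 1 array set its mean. MiR-203 and miR-205, the other 2 stems, were not analysed here.

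MiRNAs reported to rise in or promote epithelial-mesenchymal transition moved both ways. Of 10 stems 7 had guide-strand probes: 4 were lower and 1 was higher in HDAC6, against 24.4% lower and 21.3% higher of all probes, with a median log2 fold change of -0.72. MiR-21, an oncogenic miRNA, was at -1.22 (SE 0.282, limma, adjusted p = 0.0113). The other lower calls, miR-222 at -1.05 (SE 0.332), miR-221 at -0.84 (SE 0.282) and miR-181b at -0.72 (SE 0.245), were all lost with control-probe centring, with a replicate block, and without HDAC6 replicate 1, HDAC6 replicate 3, Mock replicate 1 or Mock replicate 3, which each left 1 of the 4.

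MiR-214, a miRNA of fibroblasts and other mesenchymal cells, was the 1 higher probe. It had log2 signals of 9.76, 10.05 and 9.66 in HDAC6, against 8.35, 8.75 and 8.65 in Mock, a log2 fold change of 1.24 (SE 0.208, limma, adjusted p = 0.00384). MiR-143 and miR-199a-5p, which also mark such cells, had log2 fold changes of -0.38 and -0.62 and did not pass (limma, adjusted p = 0.27 and 0.118).

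**Figure D5:**
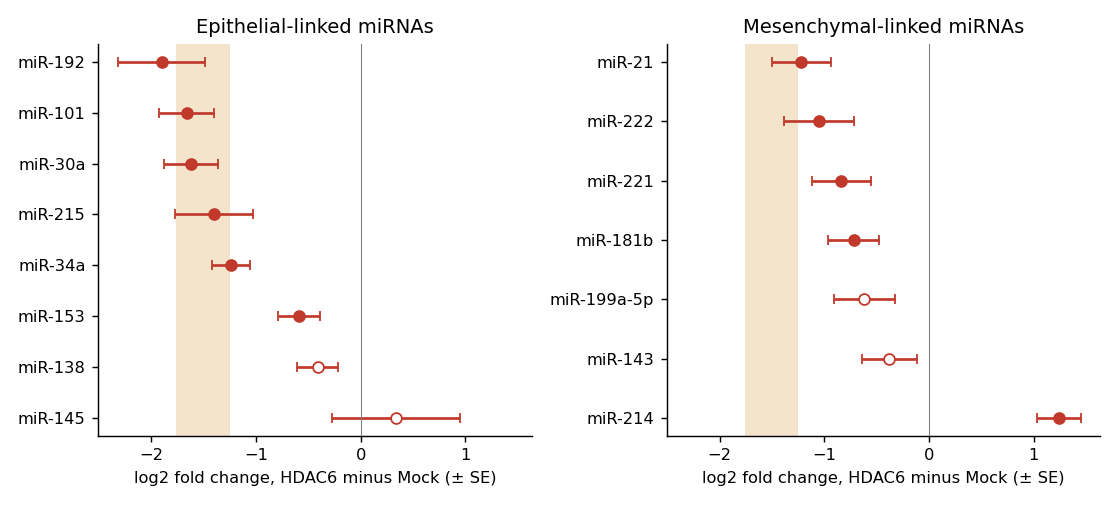
Log2 fold change, HDAC6 minus Mock, with its SE, of epithelial-linked (left) and mesenchymal-linked (right) miRNAs, where filled points passed an adjusted p of 0.05. The shaded band runs from -1.76 to -1.25, the range of the 4 miR-200 family members, and miR-214 at 1.24 is the 1 filled point above 0.

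Hepatocyte markers were lower in part. MiR-122, the main hepatocyte miRNA, had 7.66, 8.12 and 7.67 in HDAC6, against 7.31, 7.30 and 7.65 in Mock (limma, adjusted p = 0.166), near the middle of the array in either group. Of the 5 hepatocyte probes 3 (miR-192, miR-194 and miR-148a) were lower and 0 higher, against 24.4% lower of all probes, while miR-885-5p, like miR-122, did not pass. Their summed linear signal per array ran from 2608 to 6591 in HDAC6 and from 11616 to 15752 in Mock, where miR-192 alone made up 61.6% to 70.8% of it. Such sums follow the brightest probe of a list. The haematopoietic list had 7 stems, but miR-142-3p, miR-223, miR-451 and miR-144 were not analysed here. MiR-486 was counted by both arms, of which miR-486-5p did not pass (log2 fold change 0.3, limma, adjusted p = 0.286). Of 4 haematopoietic probes 1 (miR-146a) was lower and 1 (miR-486-3p) higher, a share near that of all probes, and their median log2 fold change was 0.14. Their sums of 3017 to 4147 in HDAC6 and 5573 to 8065 in Mock were mostly miR-146a, at 85.0% to 88.7% in Mock. Of 4 fibroblast and smooth muscle probes 0 were lower and 1 (miR-214) higher, against 21.3% higher of all probes, with a median log2 fold change of -0.02. Their sums were 1062 to 1504 in HDAC6 and 718 to 772 in Mock, led by miR-214 and, on HDAC6 replicate 1, raised also by miR-145. Since all arrays came from Hep3B cells, these lists only sort probes by the cells in which their miRNAs are known. The part of other cell types in the fall of the miR-200 family was not tested. Endothelial and striated muscle markers were not analysed here. The marker lists share members with those above: miR-192 and miR-145 were also epithelial-linked, and miR-143, miR-199a-5p and miR-214 mesenchymal-linked. Their counts are therefore not separate.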

How the data were processed

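Per the labels and the series' design text, RNA of 3 extractions was pooled per condition, 10 ug was labelled with biotin and hybridized to GenoExplorer microRNA chips, and the arrays were read on an Axon scanner with GenePix Pro 5.0. The authors averaged 3 spots per probe, then quantile normalized and class-filtered the values in GenePlex 3.0. The sources used here do not give the background correction or the filter's rule. The deposited table holds log2 values, as read from the numbers themselves: 79.7% of their antilogs are multiples of 1/18 within 0.02 of an eighteenth, as ranked means over 6 arrays of 3 spots give. They run from 3.52 to 15.78, with array medians from 7.51 to 7.58. Of 582 rows 1 was blank. The number of arrays limits the precision.

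HDAC6 was compared with Mock in R 4.3.3 by limma 3.58.1, with lmFit and eBayes (two-sided, without covariates), fitted to all 581 probes with Benjamini-Hochberg adjustment and a threshold of 0.05. Arrays correlated at 0.937 to 0.959 within HDAC6, 0.922 to 0.952 within Mock and 0.779 to 0.848 between them. Single values per array were compared by exact permutation tests (scipy 1.17.1).

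The members, the lists and the alternatives were chosen with earlier results of these data known, so none is independent support. The 2 differences of miR-200b from its star and precursor probes were added after the values were seen. The miRNAs named are the members, their star and precursor probes, the 6 guide strands of most similar profile, every probe of the epithelial-linked and mesenchymal-linked lists past the threshold, and the nearest probes by sequence. Other miRNAs were named after their values were seen.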

Additional observations from a re-analysis of the deposited data

How the results depend on the processing

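The 4 miR-200 family members kept their direction and their call under each alternative in which they were tested: 4 scalings or offsets, mature probes alone, other variance models, a replicate block, a threshold of 0.01, limma's treat test at 1.2-fold, and the omission of each array. MiR-141 was too dim for the fit on brighter probes, so 3 members were called there. Their log2 fold changes ranged from -1.48 to -0.66 for miR-141, -1.53 to -1.0 for miR-200b, -1.74 to -1.40 for miR-200a and -1.95 to -1.16 for miR-429. The cause of shifts in other results was not tested. The sign of miR-200b* turned with repeated quantile normalization (0.26), control-probe centring (0.06) and array weights (0.10), and ran from -0.15 to 0.08 with single arrays left out. That of miR-200b-pre turned in the first 2 of these (0.19 and 0.07) and ran from -0.23 to 0.19. With the offset, miR-429 minus miR-200a changed by 0.24 and miR-200a minus miR-141 by -0.74. With single arrays left out, miR-200b minus miR-141 ran from -0.29 to 0.26.

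Of all probes 266 passed, against 166 with control-probe centring, 173 of 290 brighter probes and 130 at an adjusted p under 0.01. Mesenchymal-linked probes called lower fell in number to 1 with control-probe centring, a replicate block or the treat test, and to 0 at 0.01, and ran from 1 to 4 with single arrays left out. Same-numbered arrays shared only a number: their deviations correlated at 0.16, -0.09 and 0.19. With the replicate block 264 probes passed, and the members' adjusted p lay between 0.00652 (miR-429) and 0.00889 (miR-200b).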

Other observations

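Outside the family, the mature sequences nearest to the members by edit distance were sought among stems with a probe. They were miR-645 at 7 edits from miR-200b and miR-22 at 9 edits from miR-429, the first by name of 2 at that distance. MiR-140-3p was at 9 edits from miR-200a and miR-141, where it was first by name among several at that distance. MiR-645 had log2 signals of 7.41, 7.55 and 7.29 in HDAC6, against 6.82, 7.07 and 6.25 in Mock, a log2 fold change of 0.70 (limma, adjusted p = 0.051). MiR-22 was lower, at -1.08 (SE 0.208, limma, adjusted p = 0.00529). MiR-140-3p had 12.79, 5.89 and 5.95 in HDAC6, against 6.99, 7.14 and 7.11 in Mock, so HDAC6 replicate 1 alone stood high and the log2 fold change of 1.13 had an SE of 1.66 (limma, adjusted p = 0.608).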
